A study of Mus musculus with 16 samples.

Results

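The genes described here encode 8 secreted antimicrobial proteins of skin and other epithelia: the beta-defensins Defb14, Defb4, Defb6 and Defb1, the protease inhibitor Slpi, the siderophore-binding lipocalin Lcn2, the cathelicidin Camp and the peptidoglycan recognition protein Pglyrp1. They were taken by symbol from the 32989 genes of the count table, in all 16 libraries, from a list drawn up with earlier results of these data in view, and were chosen by name rather than by a threshold. All 8 had at least 1 count, and 5 of them (Defb14, Defb4, Defb1, Slpi and Lcn2) had a mean count of at least 5 over the libraries and were among the 19049 genes tested. The measured values behind the choice were those of Defb14, selected on its difference in level between the cell types under N1-AcSpd, so values of that comparison are given for each of the 8 genes as a description, without a test. Every comparison of treated with untreated cells shares those N1-AcSpd libraries, so p-values of Defb14 there are not independent of its choice. The untreated cell type comparison holds other libraries, but of the same mice, and its spread was estimated from all 16 libraries. Its p-value for Defb14 is therefore not independent of that choice either.

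Beta-defensins are small cationic peptides folded around 3 disulfide bonds that damage microbial membranes. Keratinocytes make some of them constitutively and others after signals such as IL-1, IL-17 and IL-22, whose receptors act through NF-κB, C/EBP and STAT3 factors. SLPI blocks serine proteases, lipocalin 2 withholds iron from bacteria by binding their siderophores, the cathelicidin precursor is cut by proteases such as kallikreins into an active peptide, and PGLYRP1 binds bacterial cell wall.

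The cells came from wild-type C57BL/6J mice, grown from telogen skin epidermis as hair follicle stem cell (HFSC) organoids in Matrigel for 2 weeks. Sorting on α6 integrin and CD34 then gave progenitors (α6+/CD34-) and HFSCs (α6+/CD34+). Organoids were left untreated or kept for 72 h with N1-AcSpd, the acetylated polyamine N1-acetylspermidine, so that the 4 groups were untreated CD34-, N1-AcSpd CD34-, untreated CD34+ and N1-AcSpd CD34+. Each of 4 mice gave 1 library to each group, and each library held RNA of a sorted population counted as 3′ tags with unique molecular identifiers. Concentration, age and sex of single animals are not among the labels, both sexes were used according to the methods, and the organoids were started from epidermal cells, away from the dermis of the skin they came from.

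The coding sequences of the 4 defensins are shown so that these members of the family can be compared. In GENCODE on GRCm38, Defb14 lies at chr8:19194357-19195212, and Defb4 at chr8:19198706-19201545, with its start 4349 bases from that of Defb14. Defb6 follows at chr8:19225478-19228209 and Defb1 lies further along the same strand at chr8:21776599-21795185. Cysteine codons are in capitals.
Defb14: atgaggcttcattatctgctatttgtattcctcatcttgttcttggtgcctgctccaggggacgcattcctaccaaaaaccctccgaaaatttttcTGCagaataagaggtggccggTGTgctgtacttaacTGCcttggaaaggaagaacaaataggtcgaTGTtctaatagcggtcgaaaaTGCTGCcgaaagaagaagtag
Defb4: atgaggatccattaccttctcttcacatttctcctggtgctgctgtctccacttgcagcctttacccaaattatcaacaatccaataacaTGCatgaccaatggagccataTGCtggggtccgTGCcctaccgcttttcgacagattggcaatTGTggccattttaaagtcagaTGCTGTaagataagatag
Defb6: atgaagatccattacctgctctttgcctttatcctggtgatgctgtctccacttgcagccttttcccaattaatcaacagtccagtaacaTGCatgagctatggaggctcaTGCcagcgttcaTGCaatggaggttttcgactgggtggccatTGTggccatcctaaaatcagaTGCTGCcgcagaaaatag
Defb1: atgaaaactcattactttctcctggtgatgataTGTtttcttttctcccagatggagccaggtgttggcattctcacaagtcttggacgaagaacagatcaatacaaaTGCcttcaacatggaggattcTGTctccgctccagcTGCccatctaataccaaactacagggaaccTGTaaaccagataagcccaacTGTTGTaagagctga
The last 6 cysteine codons of each sequence carry the defensin spacing. In Defb14 and Defb1 the gaps between these codons were 6, 4, 9, 6 and 0 codons, whereas in Defb4 and Defb6 the second gap was 3 codons. Defb4 and Defb6 shared 78.6% of aligned bases, against 54.7% for Defb14 and Defb4 and 48.6% for Defb14 and Defb1. The annotated model of Defb14 ends with its 204 coding bases and holds no untranslated sequence, which could keep some of its 3′ tags from being assigned.

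Library totals ran from 15480075 to 29074855 unique tags, 16179323 or more in CD34- libraries and 26233887 or fewer in CD34+ libraries. Levels below are in CPM, counts scaled by TMM-adjusted library totals, and limits from counts cover counting error only. Cd34 lay between 2.87 and 3.65 CPM in CD34- libraries and between 43.4 and 64.0 CPM in CD34+ libraries. Krt5 and Krt14 of basal keratinocytes were high in every library, at 909 CPM or more and 4598 CPM or more. All 7 suprabasal markers (Krt1, Krt10, Ivl, Lor, Flg, Sbsn and Dsg1a) were lower in CD34+ cells under both conditions. Their summed level was 404 to 455 CPM in untreated CD34-, 482 to 660 CPM in N1-AcSpd CD34-, 155 to 178 CPM in untreated CD34+ and 174 to 193 CPM in N1-AcSpd CD34+ libraries. In sorted bulk samples, fewer cells of a type and less RNA per cell cannot be told apart.

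Neutrophils are another known source of Camp, Lcn2, Pglyrp1 and Slpi. Of 10 neutrophil markers, 8 had a count and 4 (Ptprc, Itgam, Csf3r and Cxcr2) reached 1 CPM in any library. Elane and Ngp had no count, Mpo stayed at or under 0.0638 CPM and Ltf at or under 0.213 CPM. The sum of the list was 190 to 258 CPM in CD34- and 101 to 152 CPM in CD34+ libraries, of which Cxcr2 alone made up 96.2 to 252 CPM. Of 8 markers of other immune cells, 5 had a count and their sum did not pass 7.64 CPM in any library. The fibroblast list stayed at or under 1.37 CPM, the melanocyte list lay between 9.14 and 12.6 CPM, nearly all of it Pmel, whose model overlaps Cdk2 and Dgka, and of the endothelial list Pecam1 was high in every group (1686 CPM or more) while Cdh5 had no count.

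Between the cell types, the 3 defensins with enough counts were lower in CD34+ HFSCs than in CD34- progenitors, and Lcn2 was higher. In untreated cells 4 of the 5 tested genes passed an adjusted p of 0.05, 1 higher and 3 lower, where 16.1% of all tested genes were called higher and 16.1% lower. Their median log2 fold change was -1.11, against 0.02 over all tested genes. Defb14, chosen on the same difference in N1-AcSpd cells of the same mice, is among the 4 and enters the median. Neither value is independent of that choice. In N1-AcSpd cells, the comparison on which Defb14 was selected, the level of 1 gene was higher and the levels of 4 were lower in CD34+ cells, each without overlap between the groups. Over all tested genes 16.5% were called higher and 16.8% lower there, and nothing is read from that share. The share of all tested genes without overlap is not given for any comparison, so lack of overlap only describes the libraries. Tests used edgeR's quasi-likelihood method with Benjamini-Hochberg adjustment over all tested genes.

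**Figure D1:**
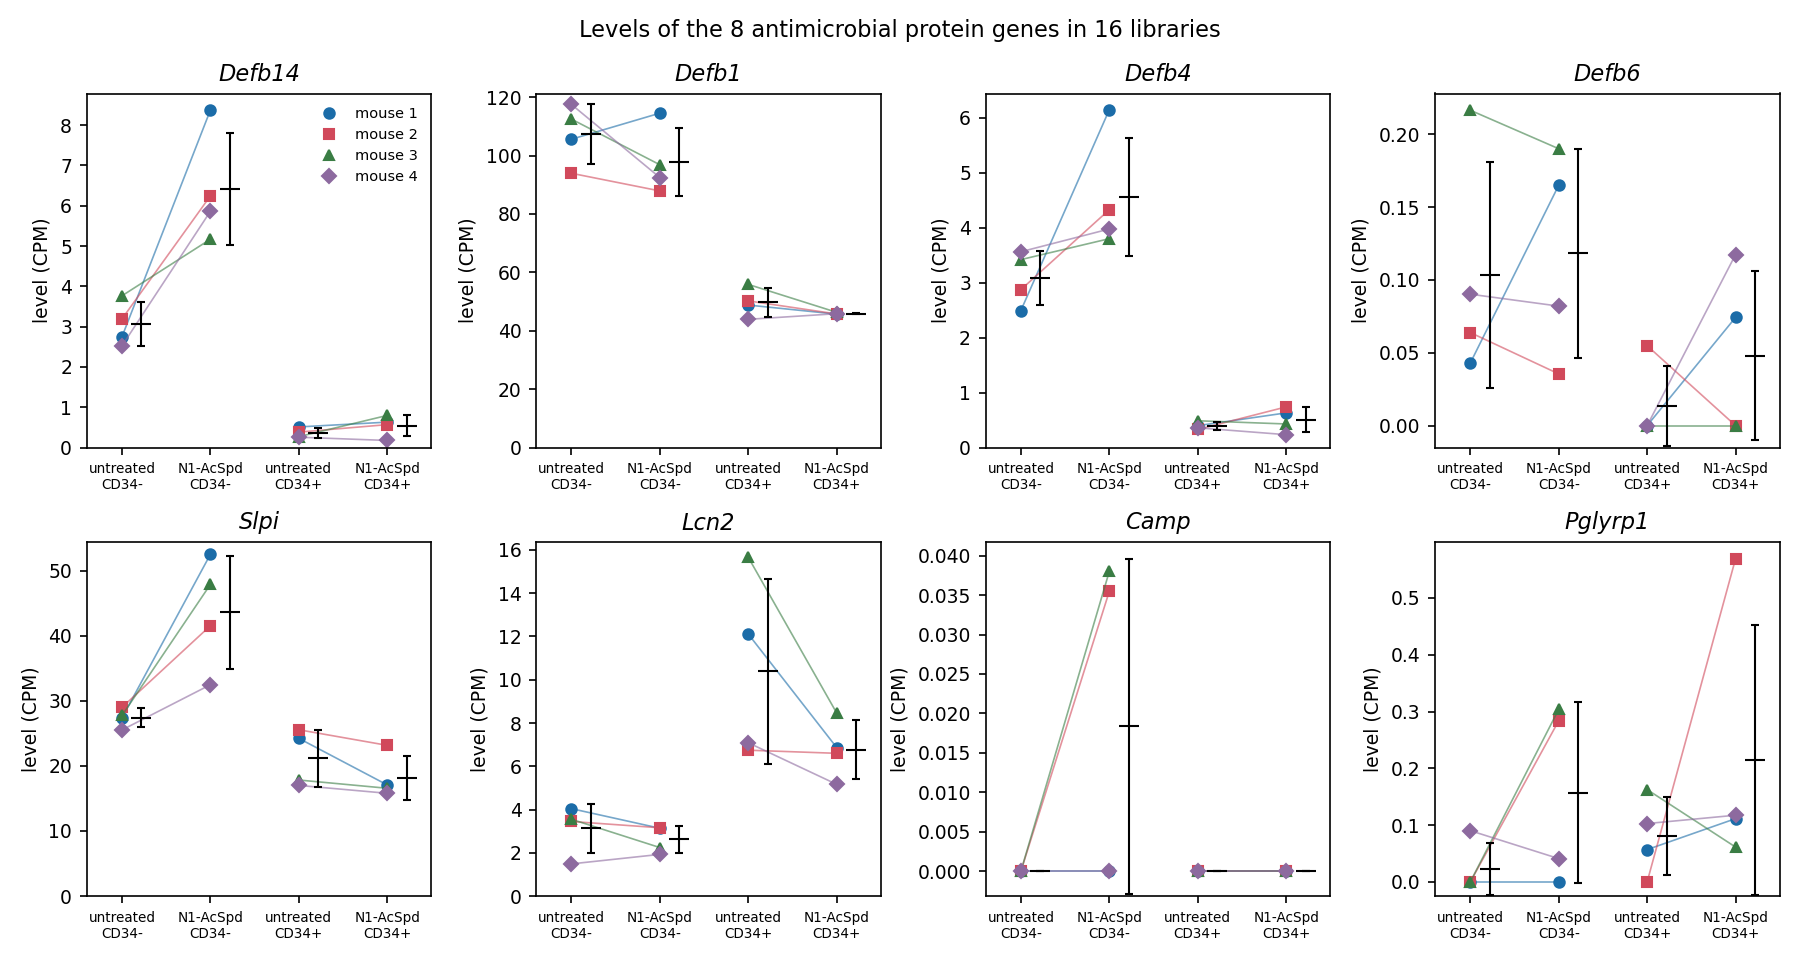
Level of each of the 8 genes in CPM (y axis, linear, own scale per gene) in the 4 groups (x axis). Coloured points are single libraries, with lines joining the untreated and treated library of a mouse within a cell type, and black bars are mean and SD over 4 libraries. Defb14, Defb4 and Defb1 lie lower in CD34+ libraries and Lcn2 higher, and Camp has 1 count in each of 2 libraries.

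Defb14, the mouse counterpart of human beta-defensin 3, was detected in every library. In untreated CD34- cells mice 1 to 4 had 2.75, 3.19, 3.77 and 2.53 CPM. Untreated CD34+ cells of the same mice had 0.512, 0.384, 0.271 and 0.257 CPM, from 5 to 9 counts each. The groups did not overlap, and the level was lower in CD34+ cells in 4 of 4 mice.

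The untreated means of Defb14 were 3.06 ± 0.55 (SD, n = 4) and 0.356 ± 0.119 CPM (SD, n = 4). In the fit, Defb14 was 8.51-fold lower in untreated CD34+ cells, or by -3.09 on the log2 scale (SE 0.34, adjusted p = 1.12e-05, edgeR). This p-value lends no independent support, as Defb14 was chosen on the same difference in treated cells of the same mice. Under N1-AcSpd, CD34- libraries of mice 1 to 4 had 8.37, 6.24, 5.17 and 5.86 CPM and CD34+ libraries 0.631, 0.569, 0.797 and 0.176 CPM, the last from 3 counts. These groups did not overlap either, with a fitted log2 fold change of -3.54 (SE 0.32). From high to low the groups ran N1-AcSpd CD34-, untreated CD34-, N1-AcSpd CD34+ and untreated CD34+, and only the CD34+ groups overlapped each other.

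Defb4, an inducible beta-defensin encoded next to Defb14, had a like pattern. Its untreated CD34- libraries held 2.49, 2.87, 3.42 and 3.56 CPM in mice 1 to 4. The untreated CD34+ libraries held 0.398, 0.329, 0.488 and 0.360 CPM, from 6 to 9 counts. The cell types did not overlap.

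Defb4 fell by 2.95 on the log2 scale (SE 0.28, adjusted p = 3.44e-06, edgeR), a 7.75-fold lower level in untreated CD34+ cells. With N1-AcSpd the CD34- libraries had 6.15, 4.33, 3.80 and 3.98 CPM and the CD34+ libraries 0.631, 0.740, 0.429 and 0.235 CPM, and the log2 fold change was -3.13 (SE 0.27). The group order was that of Defb14, and again only the CD34+ groups overlapped.

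Defb1, known as the constitutive epithelial beta-defensin, differed less between the cell types but with little spread. Mice 1 to 4 had 106, 93.9, 112 and 117 CPM in untreated CD34- cells. In untreated CD34+ cells they had 48.8, 50.2, 55.9 and 43.9 CPM. Every CD34+ library lay below every CD34- library.

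The fitted difference of Defb1 in untreated cells was 2.16-fold, or -1.11 on the log2 scale (SE 0.09, adjusted p = 1.21e-06, edgeR). N1-AcSpd CD34- libraries had 114.5, 87.9, 96.8 and 92.4 CPM. The 4 N1-AcSpd CD34+ libraries lay between 45.7 and 46.3 CPM, and the log2 fold change between cell types was -1.09 (SE 0.09). Within each cell type, the untreated and treated libraries overlapped.

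Defb6, on the same strand beyond Defb4, had 26 counts in all, in 11 of 16 libraries, and was below the count minimum of the test. Untreated CD34- libraries held 1, 1, 5 and 2 counts and N1-AcSpd CD34- libraries 4, 1, 5 and 2. Untreated CD34+ libraries held 1 count together, in mouse 2, and N1-AcSpd CD34+ libraries 2 counts each in mice 1 and 4. No level above 0.216 CPM was seen.

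Slpi, the secretory leukocyte protease inhibitor, lies at chr2:164354070-164389095 on the minus strand. Untreated CD34- libraries of mice 1 to 4 had 27.4, 29.0, 27.7 and 25.5 CPM, and untreated CD34+ libraries 24.2, 25.5, 17.8 and 17.0 CPM. The CD34+ level was lower in 4 of 4 mice, but the groups overlapped slightly. The log2 fold change was -0.37 (SE 0.17, adjusted p = 0.109, edgeR) without mouse as a block and -0.39 (SE 0.13, adjusted p = 0.0345) with it.

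Under N1-AcSpd the Slpi levels of the cell types stood further apart. This difference between conditions, tested below as an interaction, was not called in edgeR. CD34- libraries had 52.5, 41.5, 47.9 and 32.5 CPM and CD34+ libraries 17.1, 23.2, 16.6 and 15.8 CPM, without overlap. The fitted difference was 2.40-fold, a log2 fold change of -1.26 (SE 0.17). The microRNA gene Mir7678 lies within Slpi at chr2:164354313-164354383 and its counts amounted to 11.3 to 23.0% of those of Slpi per library, so the counting may have split tags of Slpi between both names.

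Lcn2 was the only tested gene of the 8 with a higher level in CD34+ cells in either condition. It lies at chr2:32384633-32388252 on the minus strand. Untreated CD34- libraries of mice 1 to 4 had 4.04, 3.45, 3.55 and 1.49 CPM, and untreated CD34+ libraries 12.1, 6.74, 15.7 and 7.09 CPM. The groups did not overlap, although mice 1 and 3 lay well above mice 2 and 4 among the CD34+ libraries.

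In the fit Lcn2 was 3.32-fold higher in untreated CD34+ cells, or by 1.73 on the log2 scale (SE 0.33, adjusted p = 0.00112, edgeR). N1-AcSpd CD34- libraries had 3.13, 3.16, 2.24 and 1.93 CPM and N1-AcSpd CD34+ libraries 6.87, 6.60, 8.46 and 5.17 CPM. The cell types did not overlap there either, and the log2 fold change was 1.37 (SE 0.33).

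Camp, at chr9:109847379-109849617, and Pglyrp1, at chr7:18871331-18890459, are best known from neutrophil granules and were close to absent. Camp had 1 count in each of mice 2 and 3 in N1-AcSpd CD34- cells and none elsewhere. A group total of 0 allowed up to 0.0356 CPM in untreated CD34-, 0.0407 CPM in untreated CD34+ and 0.0385 CPM in N1-AcSpd CD34+ cells.

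Pglyrp1 had 41 counts in 11 libraries. Untreated CD34- libraries held 2 counts, in mouse 4, and untreated CD34+ libraries 1, 0, 3 and 2. Under N1-AcSpd, CD34- libraries held 0, 8, 8 and 1 counts and CD34+ libraries 3, 10, 1 and 2. The highest library, at 0.569 CPM, was that of mouse 2 in N1-AcSpd CD34+ cells, and all 4 groups overlapped. Camp, Pglyrp1 and Defb6 lay below the count minimum of the test. In an edgeR fit without that minimum none of the 3 was called in the 5 comparisons other than that of the cell types under N1-AcSpd, the smallest adjusted p being 0.676 for Camp, 0.342 for Pglyrp1 and 0.162 for Defb6.

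**Figure D2:**
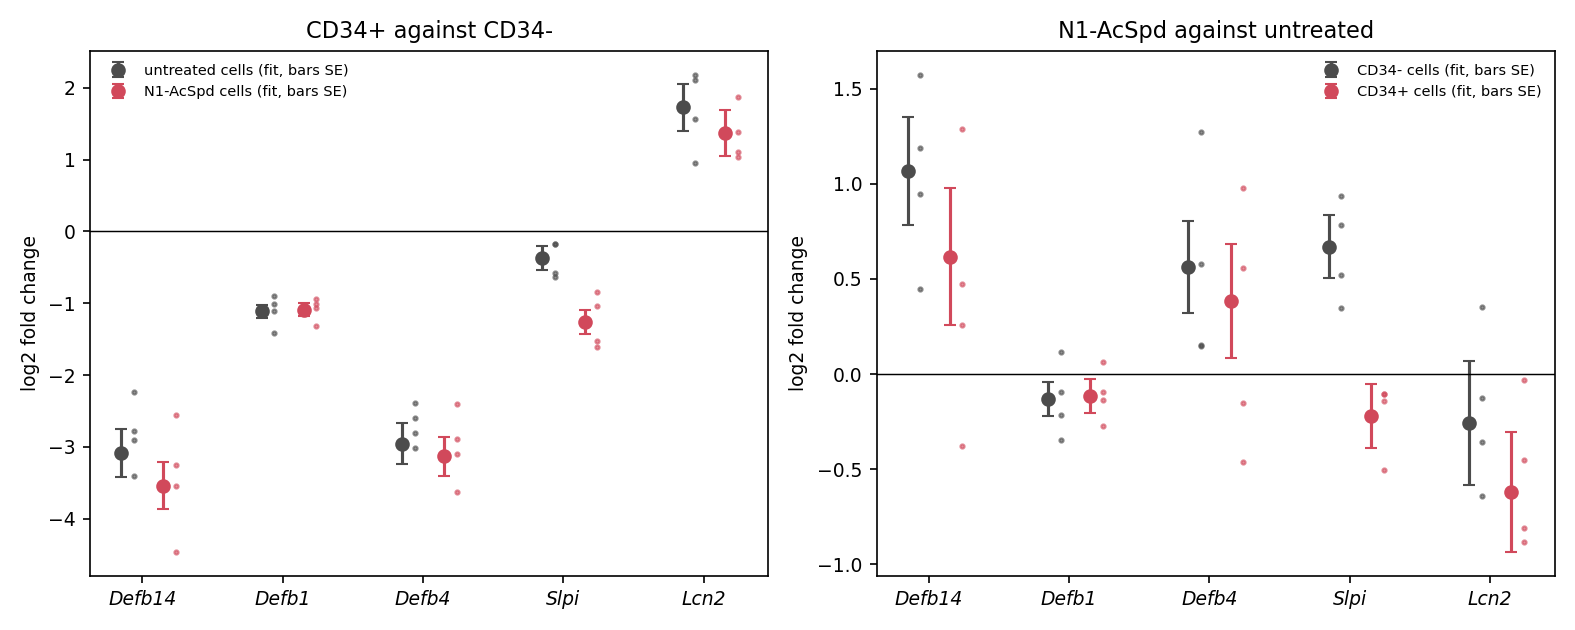
Log2 fold changes of the 5 tested genes (x axis), CD34+ against CD34- on the left and N1-AcSpd against untreated on the right. Large points and bars are fitted values and SE, and small points are the 4 mice, as differences of log2 levels. Cell type effects run from -3.54 for Defb14 to 1.73 for Lcn2, while treatment effects lie between -0.62 and 1.07, and those of Slpi point up in CD34- and down in CD34+ cells in all 4 mice.

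The effect of 72 h of N1-AcSpd was compared within each cell type. None of the 5 tested genes passed the threshold in CD34- cells by edgeR, where 0.373% of tested genes were called higher and 0.241% lower. None passed in CD34+ cells, where 0.189% were called higher and 0.136% lower. At an unadjusted p under 0.05, 2593 genes in CD34- and 2505 genes in CD34+ cells passed. With mouse as a block the calls over all genes went from 117 to 349 in CD34- and from 62 to 152 in CD34+ cells, and Slpi was then called in CD34- cells.

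In CD34- cells, Slpi and Defb14 had higher levels with N1-AcSpd in 4 of 4 mice, and the treated and untreated libraries did not overlap. This separation, and that of Defb4 below, is a description without the share over all tested genes, and no effect is read from it. The log2 fold change of Slpi was 0.67 (SE 0.17), a 1.59-fold difference, with an adjusted p of 0.0939 in edgeR, 0.0320 with mouse as a block and 0.00463 in DESeq2. Defb14 differed 2.09-fold, or by 1.07 on the log2 scale (SE 0.28, adjusted p = 0.108, edgeR). DESeq2 gave Defb14 an unadjusted p of 1.03e-05 and, through its own count filter, no adjusted p in this comparison. With the library of mouse 4 left out of the N1-AcSpd CD34+ group, which shares in the estimate of spread, Defb14 passed with an adjusted p of 0.0381. The N1-AcSpd libraries behind the choice of Defb14 enter this comparison, so its p-values here lend no independent support.

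Defb4 was also higher in 4 of 4 mice, without overlap, at 0.56 on the log2 scale (SE 0.24, adjusted p = 0.326, edgeR). Mouse 1 had the largest difference for Slpi, Defb14 and Defb4 alike, with 0.94, 1.57 and 1.27 on the log2 scale. Mouse 1 also had the highest summed level of the 7 suprabasal markers among the treated CD34- libraries, at 660 CPM, from 404 CPM untreated. In mice 2, 3 and 4 the sum went from 426 to 524, from 454 to 529 and from 455 to 482 CPM. These mice had log2 differences of 0.95, 0.45 and 1.19 for Defb14, 0.52, 0.79 and 0.35 for Slpi and 0.58, 0.15 and 0.15 for Defb4. None of these 7 markers was called for treatment in CD34- cells, although Ivl, a cornified envelope protein, had a log2 fold change of 0.60 and an adjusted p of 0.0686 (edgeR). The part of these markers in the levels of the 8 genes was not tested.

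Defb1 and Lcn2 had log2 fold changes of -0.13 (SE 0.09, adjusted p = 0.568, edgeR) and -0.26 (SE 0.33, adjusted p = 0.845, edgeR) in CD34- cells. For both, 3 mice had a lower and 1 mouse a higher level with treatment, and the groups overlapped.

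In CD34+ cells, treated and untreated libraries overlapped for all 5 tested genes. The log2 fold changes were 0.62 (SE 0.36) for Defb14, 0.38 (SE 0.30) for Defb4, -0.11 (SE 0.09) for Defb1, -0.22 (SE 0.17) for Slpi and -0.62 (SE 0.32) for Lcn2. Their adjusted p-values lay between 0.431, for Lcn2, and 0.671, for Defb4, in edgeR. Lcn2 and Slpi had lower levels with treatment in 4 of 4 mice. The levels of Defb14 and Defb4 in CD34+ cells rested on 26 to 43 counts over a group.

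**Figure D3:**
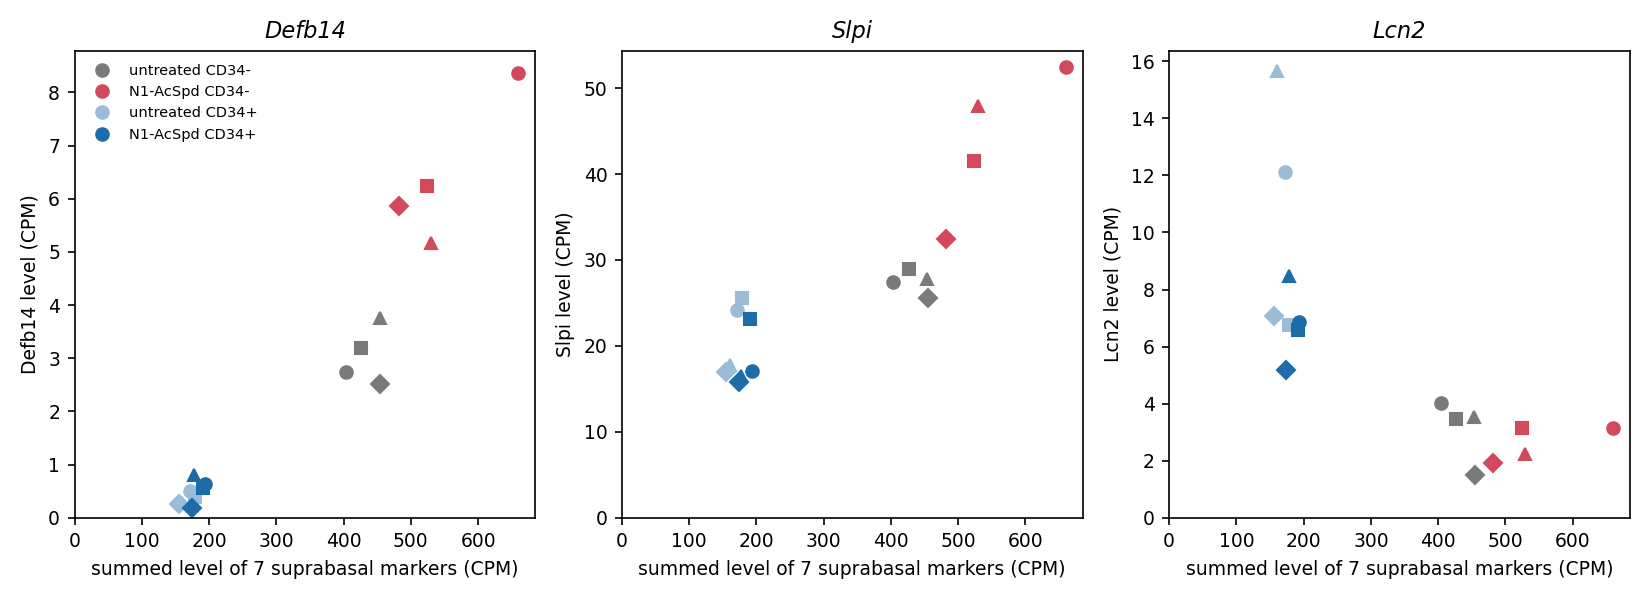
Level of Defb14, Slpi and Lcn2 (y axes, CPM) against the summed level of 7 suprabasal keratinocyte markers (x axis, CPM) in the 16 libraries, coloured by group, with circles, squares, triangles and diamonds for mice 1 to 4. CD34- libraries, at 404 CPM or more on the x axis, lie apart from CD34+ libraries, at 193 CPM or less.

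Averaged over both cell types, the treatment effect of Defb14 was 0.84 on the log2 scale (SE 0.23), and its adjusted p of 0.0515 in edgeR lay just above the threshold. It was 0.0392 with mouse as a block, and over all genes the block took the calls from 925 to 1551. Both p-values of Defb14 draw on the N1-AcSpd libraries behind its choice. None of the 5 genes was called in this comparison, where 2.7% of tested genes were called higher and 2.16% lower. Defb4 had 0.47 (SE 0.19, adjusted p = 0.174), Slpi 0.22 (SE 0.12, adjusted p = 0.308), Defb1 -0.12 (SE 0.06, adjusted p = 0.287) and Lcn2 -0.44 (SE 0.23, adjusted p = 0.299) in edgeR. Ivl and Sbsn of the suprabasal list rose in this comparison, by 0.60 (adjusted p = 0.00504) and 0.25 (adjusted p = 0.0346, edgeR), the counts of Sbsn lying within 5% of those of the overlapping model Tmem147os in every library.

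Whether the cell type effect differed between treated and untreated cells was tested as an interaction. Slpi had the largest value of the 5 genes, -0.89 on the log2 scale (SE 0.24). Its unadjusted p was 0.00221 and its adjusted p 1.0 in edgeR, so it failed the correction. The treated level of Slpi was above the untreated level in 4 of 4 mice in CD34- cells and below it in 4 of 4 mice in CD34+ cells.

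The interaction values of the other genes were -0.45 (SE 0.47) for Defb14, -0.18 (SE 0.40) for Defb4, 0.02 (SE 0.13) for Defb1 and -0.36 (SE 0.45) for Lcn2. Over all tested genes, 0% were called by edgeR, 799 genes had an unadjusted p under 0.05, and DESeq2 called 72. The SE was smallest for Defb1 and largest for Defb14 among these 5 values.

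Other genes of the same defence were described from lists by function. Over all tested genes 16.1% were called higher and 16.1% lower in untreated CD34+ cells. The lists are short, so no result about a list is read from its counts. Of 24 further antimicrobial proteins, 16 were in the table and 11 were tested. In untreated cells 2 were higher and 4 lower in CD34+ cells. S100a9 and S100a8, which form the zinc-binding calprotectin, were lower in untreated CD34+ cells, with log2 values of -2.76 (SE 0.31, adjusted p = 1.73e-05) and -2.23 (SE 0.30, adjusted p = 7.52e-05, edgeR). Cxcl14, a chemokine with antibacterial activity, was higher by 0.79 (SE 0.10, adjusted p = 4.31e-05, edgeR). None of the 11 was called for treatment in either cell type or on average, and their median untreated cell type effect was -0.26.

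Adm, which encodes the antimicrobial peptide adrenomedullin, was lower in untreated CD34+ cells (log2 -0.91), but its counts lay within 5% of those of the overlapping model Gm28863 in every library, so that its tags are uncertain. Rnase4 was higher (log2 0.25) and overlaps Ang.

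Among the other beta-defensins, 9 of 38 had a count and 3 were tested. Defb3, named after its values were seen, lies 99003 bases from the start of Defb14 and shares 76.0% of aligned coding bases with Defb4. It was lower in untreated CD34+ cells, at -2.34 on the log2 scale (SE 0.69, adjusted p = 0.0188, edgeR), on a mean of 6.63 counts per library. Defb2 and Defb42 were not called, with 0.20 (SE 0.37) for Defb2.

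Slpi belongs with the WAP disulfide core proteins, of which 18 Wfdc genes are annotated, 8 were in the table and 5 were tested. In untreated cells 2 were higher in CD34+ cells and 2 were lower, against 16.1% each way over all tested genes, with none called for treatment. Named after their values were seen, these were Wfdc3 (3.12) and Wfdc18 (2.09), higher, and Wfdc5 (-2.53) and Wfdc12 (-0.88), lower, on the log2 scale, the last 2 overlapping the same model A730032A03Rik.

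Of 22 receptors and adaptors through which cytokines and microbial products act on these genes, 17 were tested. In untreated CD34+ cells 5 were higher and 2 lower, against 16.1% each way over all tested genes, and none was called for treatment. Osmr, the oncostatin M receptor, was higher by 1.03 (SE 0.09, adjusted p = 1.57e-06, edgeR) and Il20rb, a receptor chain for IL-20 family cytokines, by 0.87 (SE 0.14, adjusted p = 2.87e-04, edgeR). Il10rb and Tnfrsf1a were also higher, by 0.37 (SE 0.11, adjusted p = 0.0212) and 0.24 (SE 0.06, adjusted p = 0.00954, edgeR). The Il10rb model overlaps Gm21970. Il6ra, the IL-6 receptor, and Il17rc, a chain of the IL-17 receptor, were lower, at -1.16 and -0.40 on the log2 scale. The median of the list was 0.05 against 0.02 over all tested genes.

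All 14 transcription regulators were tested, with 5 higher and 2 lower in untreated CD34+ cells, against 16.1% each way over all tested genes. Cebpd and Vdr, a C/EBP factor and the vitamin D receptor, were higher by 1.28 (SE 0.13, adjusted p = 5.49e-06) and 1.21 (SE 0.13, adjusted p = 7.87e-06, edgeR), while Cebpa was lower, at -1.05 (SE 0.17, adjusted p = 3.87e-04, edgeR). The epithelial ETS factor Elf3 was lower in untreated CD34+ cells (log2 -0.48) and was the only regulator called for treatment, with a mean effect of 0.44 (SE 0.09, adjusted p = 0.0185, edgeR). Relb and Stat3 were also higher in untreated CD34+ cells, by 0.33 (SE 0.09, adjusted p = 0.0118) and 0.26 (SE 0.07, adjusted p = 0.0115, edgeR). The models of Cebpd, Stat3 and Elf3 overlap Spidr, Stat5a and Gm26642.

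Of 16 binding partners and processing enzymes, 11 were in the table and 8 tested. In untreated CD34+ cells 2 of these were higher and 5 lower, against 16.1% each way over all tested genes. Klk5 and Klk7, kallikreins that cut cathelicidin in skin, were lower, at -3.06 (SE 0.35, adjusted p = 1.62e-05) and -2.91 on the log2 scale (SE 0.23, adjusted p = 1.13e-06, edgeR), while their substrate Camp was near 0. Slc22a17, a lipocalin 2 receptor, was lower (log2 -0.64) and Plscr1, to which SLPI binds, higher (log2 0.57). Mc1r, a melanocortin receptor that some beta-defensins bind, was lower (log2 -0.17). Its counts gave 1243 to 1554 CPM, a range reaching above that of Krt5 (909 to 1249 CPM). The model of Mc1r overlaps Gm20388, so that its tags are uncertain and the change may not be one of the receptor.

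**Figure D4:**
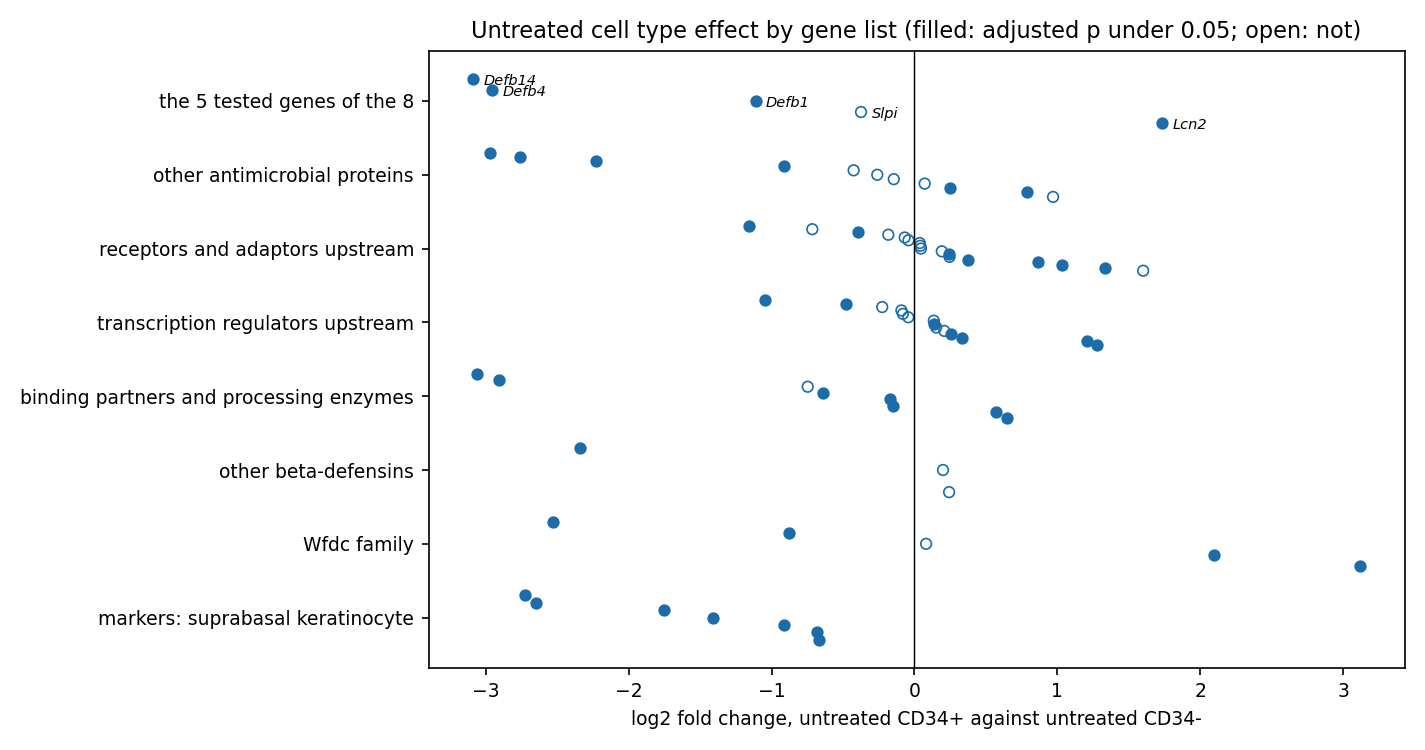
Log2 fold change of untreated CD34+ against untreated CD34- cells (x axis) for the tested genes of 8 lists (y axis). Each point is a gene, filled where the adjusted p is under 0.05, with the 5 tested antimicrobial genes named. Suprabasal markers all lie below 0, from -2.72 to -0.67, whereas the other lists spread to both sides.

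Genes whose log2 levels ran most closely with each tested gene over the 16 libraries were found among 9375 genes. For Defb14 these were Ier5 (r = 0.99), Grhl3 (r = 0.99), a regulator of epidermal barrier formation, and Trex2 (r = 0.98), a keratinocyte nuclease. For Defb4 they were Tuba4a, Klk7 and Krt6b (all r = 0.99), and for Defb1 Gramd3, Tslp and Ablim1 (all r = 0.98). Slpi was followed by Mir7678 (r = 0.92), which lies inside it, Slain2 and Dedd2 (both r = 0.91), and Lcn2 by Irf2 (r = 0.95), Serpina3g and Hmgb1 (both r = 0.93). The libraries share cell type and mouse, and any gene that differs between the cell types enters such a list easily.

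Within groups, likeness was computed only for pairs of the tested antimicrobial genes, and in each pair it was weaker than over all libraries. After each library's deviation from its group mean was taken, Defb14 and Defb4 had r = 0.61 over 16 libraries, and Defb14 and Slpi r = 0.45. Lcn2, whose level over all libraries ran against that of Defb14 (r = -0.79), had r = 0.42 with it within groups. The other pairs lay between 0.11 and 0.42 within groups.

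Promoter sequences, from 250 bases before to 50 after the start, were found in RefSeq (GRCm38.p6) for 5 of the 8 genes: Defb6, Slpi, Lcn2, Camp and Pglyrp1. For Slpi, Lcn2, Camp and Pglyrp1 this start lies inside the GENCODE span given above, so it is not the outermost start of the gene model. Those of Slpi and Lcn2 are shown because these are the tested genes among the 5. Both read 5′ to 3′ on the minus strand, with a C/EBP match in capitals, at chr2:164356458-164356757 for Slpi and chr2:32387690-32387989 for Lcn2.
Slpi: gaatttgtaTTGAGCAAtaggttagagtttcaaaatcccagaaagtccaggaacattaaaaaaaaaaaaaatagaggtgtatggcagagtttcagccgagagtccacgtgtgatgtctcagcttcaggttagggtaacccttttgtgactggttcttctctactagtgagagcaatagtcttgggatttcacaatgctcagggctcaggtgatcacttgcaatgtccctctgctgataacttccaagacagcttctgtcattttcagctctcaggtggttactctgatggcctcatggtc
Lcn2: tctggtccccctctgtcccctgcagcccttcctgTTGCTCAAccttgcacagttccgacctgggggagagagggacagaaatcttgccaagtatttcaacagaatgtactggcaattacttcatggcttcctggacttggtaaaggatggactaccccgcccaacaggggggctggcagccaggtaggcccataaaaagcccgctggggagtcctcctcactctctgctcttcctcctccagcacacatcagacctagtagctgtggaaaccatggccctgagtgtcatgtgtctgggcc
The C/EBP letters TTGCNNAA were searched on both strands and were found in the promoters of Slpi, on the opposite strand, of Lcn2 and of Defb6. Over all 32851 promoters 10.8% held them. The NF-κB consensus was found in Defb6 and Pglyrp1 and in 4.51% of all promoters, and the AP-1 letters TGANTCA in none of the 5 and in 7.81% of all. No match in Slpi or Lcn2 overlapped another motif, and a match is a description of letters.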

How the data were processed

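Per the methods of the study, the authors separated reads with FLEXBAR, pseudo-aligned the second read of each pair to mm10 with kallisto (0.45.0 per the submitters' processing notes, which also name FastQC 0.11.7), assigned tags with BEDTools and deposited counts of unique molecular identifiers per gene, without normalization. The annotation release is not given in the sources used here. The 156050 empty cells of the table were read as 0, and 62 of 32989 identifiers had no entry in GENCODE (GRCm38, the same assembly as mm10), which gave symbols, positions and coding sequences. The study's own counting rule for overlapping models is not stated, so tags of overlapping genes may be shared or split.

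Here 19049 genes passed a minimum mean count of 5 and entered 1 edgeR fit (version 4.0.16, R 4.3.3) of 16 libraries, with 1 mean per group, TMM scaling and quasi-likelihood tests. P-values are two-sided and adjusted over all tested genes, and each SE was derived from the fold change and the F statistic. The mouse entry of the labels ties each replicate number to 1 animal in all 4 groups. Deviations from the group means of libraries of 1 mouse had a mean r of 0.013 (-0.069 to 0.086, 24 pairs), and the fit with mouse as a block is an alternative. Libraries of 1 group always differed beyond sampling noise (chi-square per degree of freedom at least 26.0), and all counted as separate samples.

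The members and lists were chosen with earlier results of these data known. From each list that holds no cell type markers, called genes averaging 50 counts or more were named, at most 4 per direction and comparison. The comparison of the cell types under N1-AcSpd was left out of this naming. For each tested member, the 3 genes with the highest r of log2 CPM (prior count 2) were named. In simulated data for the untreated cell type effect (19049 genes, log2 change 1), the fit recovered 0% of changed genes with a mean count of 5 to 20, 25% from 20 to 50, 68.75% from 50 to 200 and 87.2% above 200, with 0.909% false calls. Only 42, 32, 48 and 78 genes were changed in these ranges, whereas 6123 genes were called in the data. Adjusted p-values are stricter with so few changed genes, so these shares do not carry over to the data. DESeq2 1.42.0, other scalings and filters, the compared groups alone, and runs without each library and each mouse were the other alternatives.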

Additional observations from a re-analysis of the deposited data

Results flagged for a closer look

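Slpi was singled out because its treatment effect pointed in opposite directions in the cell types. Treated levels lay above untreated levels in 4 of 4 mice in CD34- cells and below them in 4 of 4 mice in CD34+ cells, and the difference between both effects was -0.89 on the log2 scale (SE 0.24, unadjusted p = 0.00221, adjusted p = 1.0, edgeR, and adjusted p = 0.0690 in DESeq2). Without each library or mouse in turn it lay between -1.01 and -0.69. Slpi was picked for this difference, so these values describe it and are no separate support. In CD34+ cells the effect was only -0.22 (SE 0.17, adjusted p = 0.653, edgeR) and the treated and untreated libraries overlapped, so a fall there was not shown. Of 20 tests for a library far from the others of its group, over the 5 tested genes in 4 groups, none was positive, where chance gives about 1 in 20.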

How the results depend on the processing

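The cell type calls of Defb14, Defb4, Defb1 and Lcn2 in untreated cells held under every alternative run and in all 20 runs without a library or a mouse. For Defb14 these runs lend no independent support, as it was chosen on the same difference under N1-AcSpd. The untreated difference of Slpi passed only with mouse as a replicate block. In CD34- cells 1 gene was called for treatment with the block and 1 with DESeq2 (Slpi in both), DESeq2 giving no adjusted p for Defb14 and Defb4 there nor for Defb14, Defb4 and Lcn2 in CD34+ cells. The count was 0 to 1 without a library or mouse, the 1 being Defb14 without N1-AcSpd CD34+ replicate 4. For the mean treatment effect 1 gene (Defb14) was called with DESeq2 size factors, library totals, filterByExpr, the block or DESeq2, and 0 to 2 without a library or mouse. The 2 were Defb14 and Defb4 without N1-AcSpd CD34+ replicate 4, with adjusted p-values of 0.00870 and 0.0458, and without mouse 4 Defb14 had 0.0496. All treatment calls of Defb14 draw on the N1-AcSpd libraries behind its choice. The block changed no other call of these genes. The interaction changed sign for Defb1, between -0.11 and 0.11, and for Defb4, between -0.46 and 0.047, in runs without a library or mouse, and neither was called in any run. The cause of these differences was not tested. Over all genes, treatment calls in CD34- and CD34+ cells were 117 and 62 in the fit reported, 349 and 152 with the block, 558 and 423 with DESeq2, 35 and 35 without a count filter, and 0 and 3 with the compared groups alone. For the mean treatment effect they were 925, 1551 with the block, 1585 with DESeq2 and 445 without a filter, and for the interaction 0 and 72 with DESeq2. Defb14 and Defb4 rested on 26 to 43 counts over a CD34+ group, and Defb6, Camp and Pglyrp1 were below the count minimum and not called without it.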
